A study of Mus musculus with 4 samples.

Results

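Genomic imprinting leaves some genes active on only one parental chromosome, and imprinted genes often lie in clusters governed by a shared control region and a long non-coding RNA. In the Dlk1-Dio3 cluster the maternal chromosome makes Meg3, Rian and Mirg, long RNAs that host microRNAs and snoRNAs, while the paternal chromosome makes Dlk1, a membrane ligand of the Notch family. In the Igf2-H19 cluster the paternal copy of Igf2 encodes a fetal growth factor and the maternal copy makes the H19 RNA. In the Igf2r cluster the maternal Igf2r encodes the receptor that carries IGF2 to lysosomes, and the paternal Airn RNA, which runs antisense to Igf2r, silences Igf2r on its own chromosome.

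These 8 genes, Meg3, Rian, Mirg, Dlk1, H19, Igf2, Airn and Igf2r, were taken by name from the 32285 mouse genes in the files, and are described here in single liver nuclei by library, cell class and hepatocyte zone. They were selected on their CPM and share of nuclei by library, zone and class in these same data, so every difference below is a description and none was tested. Each of the 4 groups is 1 library, so no p-value can be given and no difference has a replicate check. The intervals in brackets are 95% intervals for counting error only, exact Poisson for levels in CPM (the UMIs of a gene per 1000000 mouse UMIs of the same nuclei) and exact Clopper-Pearson for shares of nuclei, where a UMI is a molecular tag that counts one captured RNA molecule.

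The nuclei came from frozen livers of Bl/6 mice fed a chow diet (CD) or a low-protein diet (LPD) for 1 week before and 2 weeks after a hydrodynamic tail vein injection. The libraries labelled CD control and LPD control came from mice given vector, and those labelled CD oncogene and LPD oncogene from mice given human c-MET and ΔN90-β-catenin, an N-terminally truncated β-catenin that is not degraded, inserted by the Sleeping Beauty transposon into a fraction of hepatocytes. The transgene UMIs went against the CD labels: the library labelled CD control held 100 of them in 90 nuclei, the library labelled CD oncogene held 0, the library labelled LPD control 0 and the library labelled LPD oncogene 6 in 6 nuclei. The study's own nuclei numbers for the CD groups also ran in the opposite order to those of the labelled files. The CD labels may therefore be exchanged, and each library is called by its label without a claim on what was injected.

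After filtering, 9825 to 12552 nuclei a library were kept with a median of 1762 to 3807 UMIs, and 16 to 35 barcodes were shared between any 2 libraries. The median share of mitochondrial UMIs was at most 0.127% in the LPD libraries, 0.983% in the library labelled CD oncogene and 2.42% in that labelled CD control. Clustering, which left the imprinted genes out, gave 27168 hepatocyte nuclei, namely 6905 and 8164 in the CD libraries labelled control and oncogene and 6438 and 5661 in the LPD libraries labelled likewise, at a median depth of 5513, 4751, 2538 and 2626 UMIs. Further series of 4 values keep that order. A score of pericentral over periportal marker genes, none of them a member, split these nuclei into 3 equal groups over all libraries. The pericentral tercile took 53.3%, 22.9%, 23.3% and 35.4% of the hepatocyte nuclei. It is named for the area around the central vein, where β-catenin signalling is active, but rests on marker levels and not on position. The paper reports that oncogene-expressing hepatocytes lay mostly outside the pericentral zone yet took on expression like that of its cells. Such nuclei can therefore fall in this tercile.

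Meg3, Rian and Mirg lie in this order on the forward strand of chromosome 12. In the GRCm38 annotation (GENCODE vM21) Meg3 spans chr12:109541001-109571726, Rian starts 32.2 kb after its end, and Mirg starts 68.0 kb after Rian, while Dlk1 ends 77.7 kb before Meg3. Airn, at chr17:12741311-12860136 on the forward strand, starts inside intron 2 of Igf2r, which lies at chr17:12682406-12769664 on the reverse strand with 48 exons. Airn and Igf2r overlap over 28.4 kb, or 32.5% of Igf2r. The sources used here do not give the strand setting of the counting, so reads in that stretch cannot be assigned with certainty to either gene.

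The 250 bases before a RefSeq start (GRCm38.p6) of Meg3, Airn and Igf2r are shown because Meg3 is the first RNA of its cluster and because Airn and Igf2r face each other. Capitals mark matches to 4 motifs searched on both strands, the CCAAT box (CCAAT), the TATA box (TATAAA), the cAMP response element (TGACGTCA) and the core of TCF/LEF sites (CTTTGA), TCF/LEF being the DNA-binding partners of β-catenin.
Meg3, chr12:109540746-109540995, forward strand: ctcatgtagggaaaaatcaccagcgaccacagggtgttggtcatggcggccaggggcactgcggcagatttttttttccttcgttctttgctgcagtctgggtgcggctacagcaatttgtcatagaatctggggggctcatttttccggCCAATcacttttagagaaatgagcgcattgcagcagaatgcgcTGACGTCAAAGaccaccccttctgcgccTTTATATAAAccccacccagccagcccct
Airn, chr17:12741061-12741310, forward strand: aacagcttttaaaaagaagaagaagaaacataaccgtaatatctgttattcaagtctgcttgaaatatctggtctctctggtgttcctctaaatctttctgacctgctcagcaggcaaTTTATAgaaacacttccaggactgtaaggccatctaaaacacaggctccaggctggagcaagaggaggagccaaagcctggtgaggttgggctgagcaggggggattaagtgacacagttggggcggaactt
Igf2r, chr17:12769707-12769956, reverse strand: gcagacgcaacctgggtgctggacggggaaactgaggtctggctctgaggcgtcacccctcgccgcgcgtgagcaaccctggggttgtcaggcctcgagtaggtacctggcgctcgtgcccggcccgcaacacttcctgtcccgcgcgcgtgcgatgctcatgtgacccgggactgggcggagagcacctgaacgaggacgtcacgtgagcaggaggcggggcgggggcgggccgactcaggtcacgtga
RefSeq has a second Meg3 start, whose window at chr12:109545148-109545397 holds none of the 4 motifs and is not shown. The Meg3 window above holds CCAAT 100 bases before the start, TGACGTCA 57 bases before it, and TCAAAG, the reverse of the TCF/LEF core, which begins 52 bases before the start and shares the letters TCA with the cAMP response element. TATA box letters on both strands lie 29 and 25 bases before the start. The Airn window holds 1 TATA match, on the reverse strand 132 bases before the start, and the Igf2r window holds none of the 4 motifs. Of 32851 such windows 1.55% hold TGACGTCA, 33.8% CCAAT, 12.4% TATAAA and 13.8% CTTTGA on either strand. The motifs were picked with the Meg3 window in view, and a match says only that the letters are there.

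The 3 long RNAs of chromosome 12 host 35 annotated mature microRNAs from 18 hairpins, 3 of them in Meg3, 6 in Rian and 26 in Mirg. Mature microRNAs were not measured in these libraries, and 4 of the hosted sequences are shown from RefSeq, with the seed (bases 2 to 8) in capitals, to make clear what the counted transcripts carry.
miR-770-5p in Meg3: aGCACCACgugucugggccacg
miR-370-3p in Rian: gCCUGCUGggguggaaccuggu
miR-453 in Mirg: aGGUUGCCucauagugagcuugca
miR-496a-5p in Mirg: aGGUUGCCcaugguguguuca
The last pair share the seed GGUUGCC.

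In hepatocytes Meg3 stood at 88.6 CPM [85.8 to 91.3] in the library labelled CD control, at 5.51 [4.89 to 6.19] in that labelled CD oncogene, at 3.01 [2.28 to 3.90] in that labelled LPD control and at 2.69 [1.98 to 3.58] in that labelled LPD oncogene. These levels rest on 4027, 288, 57 and 47 UMIs. The library labelled CD control was thus far above the others, and the intervals of both LPD libraries overlapped. Meg3 was detected in 8.08%, 1.18%, 0.388% and 0.601% of hepatocyte nuclei, and in 3.70%, 0.478%, 0.219% and 0.320% after each nucleus was thinned to 1000 UMIs. The order of the last 2 shares was the reverse of that of the CPM, and no order is read from them.

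Rian, the snoRNA and microRNA host next to Meg3, followed with 23.2 CPM [21.8 to 24.6], 1.17 [0.893 to 1.5], 0.899 [0.524 to 1.44] and 0.458 [0.198 to 0.903] from 1054, 61, 17 and 8 UMIs. Mirg, the microRNA host furthest downstream, had 288, 20, 4 and 2 UMIs, or 6.33, 0.383, 0.211 and 0.115 CPM. Both were highest in the library labelled CD control, and their intervals in the other libraries overlapped from one library to the next. The log2 ratio of that library to the highest other one was 4.01 for Meg3, 4.31 for Rian and 4.05 for Mirg. For Meg3 it was 3.01 with hepatocytes taken by a marker gate and 2.28 without the nuclei that held a marker UMI of another class.

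Dlk1 was at the floor. A single Dlk1 UMI was found in the whole series, in a mesothelial-like nucleus of the library labelled LPD oncogene. No hepatocyte nucleus held one, and, taking 3 counts as the most that a count of 0 allows, up to 0.0434%, 0.0367%, 0.0466% and 0.0530% of hepatocyte nuclei could hold a UMI of it. H19 had 6 UMIs in the series, 1 of them in hepatocytes of the library labelled CD control and 2 in vascular endothelial-like nuclei of the library labelled CD oncogene. Igf2 also had 6, 1 in hepatocytes of the library labelled LPD control and 2 in vascular endothelial-like nuclei of the library labelled CD control. At this depth the paternally expressed Dlk1 and Igf2 and the maternally expressed H19 were therefore not detectable as a level in any class, and no ratio is given for them. Of their neighbours, Rtl1, a paternally expressed gene between Meg3 and Rian, had 19 UMIs in hepatocytes of the library labelled CD control and 0 in each of the others. Rtl1 has an antisense transcript that runs with Meg3, and without the strand the pair cannot be told apart.

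Airn had another order. Its hepatocyte level was 456 CPM [449 to 462] in the library labelled CD control, 134 [131 to 137] in that labelled CD oncogene, 156 [150 to 161] in that labelled LPD control and 435 [425 to 444] in that labelled LPD oncogene. The pair of libraries that held transgene UMIs was thus above the other pair, with the lowest of the 4 log2 ratios between them at 1.48. Airn was detected in 37.8%, 22.3%, 13.9% and 30.5% of hepatocyte nuclei, and in 19.9%, 8.04%, 8.48% and 19.7% at 1000 UMIs a nucleus. At equal depth the shares paired in the same way as the CPM.

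Igf2r, the receptor antisense to Airn, stood at 77.0 CPM [74.5 to 79.6], 28.3 [26.9 to 29.8], 23.8 [21.6 to 26.1] and 27.0 [24.7 to 29.6]. Only the library labelled CD control stood apart, by a log2 ratio of 1.45 to the highest other one, and the other libraries lay within a few CPM of each other. Igf2r was detected in 26.4%, 14.9%, 6.69% and 7.68% of hepatocyte nuclei. Of the UMIs of both genes, which are not corrected for length, Airn made up 85.5%, 82.6%, 86.7% and 94.1%, so Igf2r did not follow the high Airn level of the library labelled LPD oncogene.

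**Figure D1:**
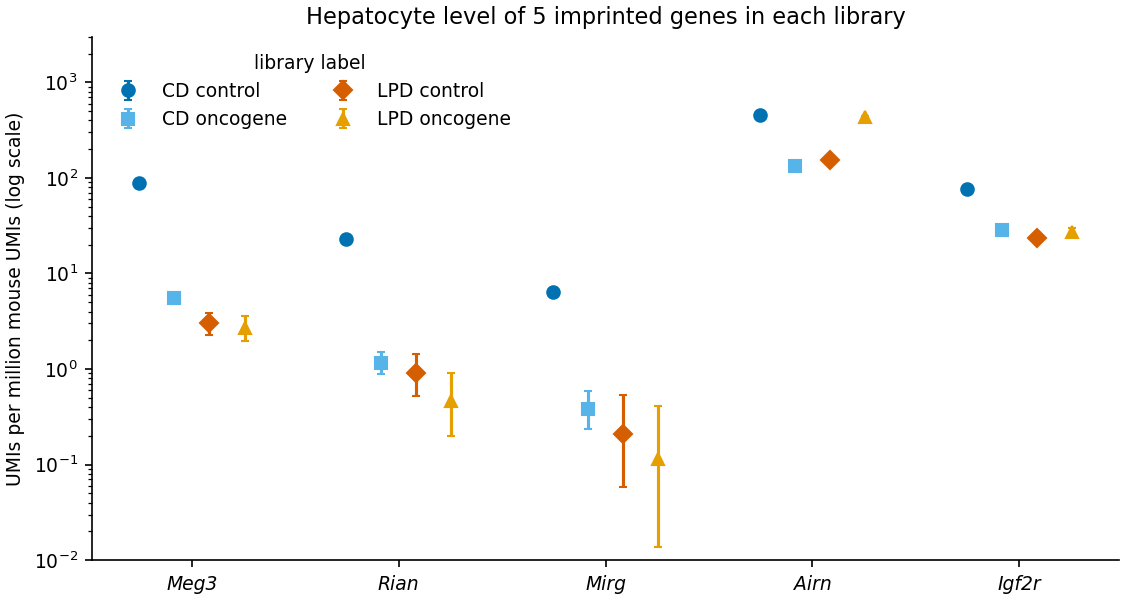
Hepatocyte levels of Meg3, Rian, Mirg, Airn and Igf2r in CPM on a log axis, one point for each of the 4 libraries with its 95% Poisson interval (counting error only). Meg3, Rian, Mirg and Igf2r are highest in the library labelled CD control, while Airn is high in the libraries labelled CD control (456) and LPD oncogene (435) and lower in the other 2.

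Among 7204 genes with at least 20 CPM in 1 library and 100 UMIs in all, 1.12% were at least 2-fold higher in the library labelled CD control than in every other one. Of the 8 members 4 reached that floor, Mirg, Dlk1, H19 and Igf2 did not, and Meg3, Rian and Igf2r were among these genes, at ranks 3, 1 and 28 by the lowest of their log2 ratios. The pattern of Airn, at least 2-fold higher in both libraries with transgene UMIs than in both others, was met by 0.222% of the genes, where Airn ranked 6. These libraries chose the members, so the shares and ranks are given for scale only. Meg3 and Rian reached 20 CPM only in the library labelled CD control, so their ranks there follow in part from the floor.

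By diet, 3.40% of the tested genes were at least 2-fold higher and 2.00% at least 2-fold lower in both LPD libraries than in both CD libraries. No member met either rule. The mean log2 ratio of the 4 LPD over CD pairs was -2.96 for Meg3, -3.02 for Rian, -3.32 for Mirg, -0.88 for Igf2r and 0.07 for Airn, while the median of all genes was 0.14 to 0.27 in these pairs. Without the library labelled CD control the same means were -0.95, -0.86, -1.30, -0.16 and 0.96, so that 1 library set most of the size for the chromosome 12 RNAs and Igf2r. Within CD, the library labelled oncogene was lower than the library labelled control for all 4 members tested, by log2 ratios of -4.01 for Meg3, -4.31 for Rian, -1.77 for Airn and -1.45 for Igf2r, against 3.07% of genes at least 2-fold lower and 2.89% higher. Within LPD, Airn was higher in the library labelled oncogene by 1.48 and Igf2r by 0.19, Meg3 was at -0.16 and Rian at -0.97, against 2.04% of genes at least 2-fold higher and 1.28% lower. The sign of Airn thus differed between the diets by label, while Igf2r set no direction within LPD, where its intervals overlapped, and whether the CD labels stand as given decides how these contrasts read.

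Within hepatocytes the levels were compared between zones. Meg3 reached 158, 15.6, 9.94 and 4.92 CPM in the pericentral tercile, 4.94, 2.08, 0.820 and 0.977 in the middle one and 3.21, 0.885, 0.744 and 1.96 in the periportal one. The pericentral level was 49.0-, 17.7-, 13.4- and 2.51-fold the periportal level, and the log2 ratio of the last library, 1.33 [0.13 to 2.75], was the least certain. The pericentral tercile held 97.7%, 82.6%, 80.7% and 70.2% of the hepatocyte Meg3 UMIs. Rian had 1035 pericentral against 7 periportal UMIs in the library labelled CD control, 48 against 6 in that labelled CD oncogene, 16 against 0 in that labelled LPD control and 7 against 0 in that labelled LPD oncogene. Mirg had 285 against 2 in the library labelled CD control and too few UMIs elsewhere to place.

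Airn was pericentral in every library. Its pericentral level was 806, 400, 554 and 974 CPM, its middle level 30.5, 36.1, 50.6 and 121, and its periportal level 24.7, 17.1, 14.5 and 50.1. The pericentral to periportal fold was 32.6, 23.4, 38.3 and 19.4. The log2 ratios of the libraries labelled LPD control and LPD oncogene were 5.26 [5.01 to 5.52] and 4.28 [4.07 to 4.50]. These intervals take each UMI as independent, so they are too narrow for UMIs gathered in few nuclei. The periportal tercile also took 51.2% of the hepatocytes of the former library and 21.7% of the latter. No difference between these ratios is read. Igf2r was pericentral mainly in the library labelled CD control, at 118 against 29.6 CPM (3.98-fold), and less so in the other libraries, at 39.4 against 22.7 (1.73-fold), 33.0 against 19.6 (1.69-fold) and 30.7 against 24.1 (1.27-fold, a log2 ratio of 0.35 [-0.02 to 0.73]). In the middle and periportal terciles the Igf2r levels of all libraries lay between 19.6 and 29.6 CPM. By their ratios Meg3 and Airn were at least 2-fold higher in the pericentral than in the periportal tercile in all 4 libraries, a pattern met by 1.49% of the 7204 genes. For Meg3 in the library labelled LPD oncogene the lower bound of the log2 ratio, 0.13, leaves 2-fold not shown. Rian passed the same rule with 0 periportal UMIs in both LPD libraries, but its 7 pericentral UMIs in the library labelled LPD oncogene leave the lower bound of the log2 ratio at -0.38, so 2-fold is not shown there. Airn was also among the 0.458% with at least 8-fold, at rank 13.

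**Figure D2:**
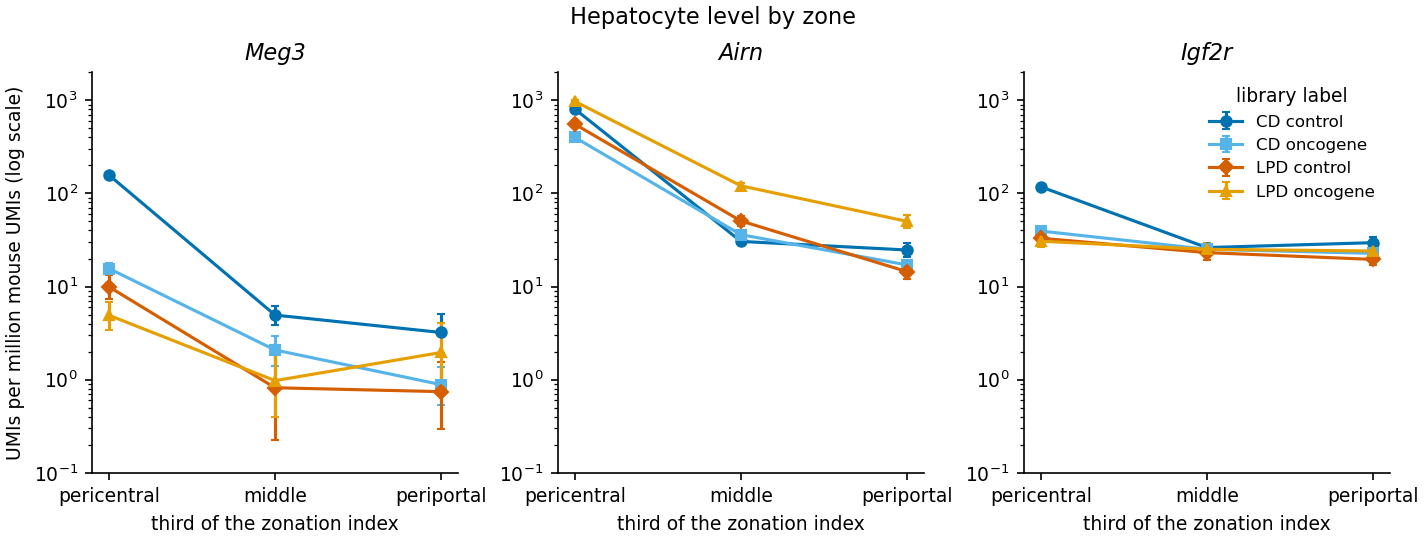
Levels of Meg3, Airn and Igf2r in CPM on a log axis in the pericentral, middle and periportal tercile of hepatocyte nuclei, one line for each library with 95% Poisson intervals (counting error only). Airn falls by 19.4- to 38.3-fold from the pericentral to the periportal tercile in every library, while Igf2r falls most in the library labelled CD control, by 3.98-fold.

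The libraries differed in zone make-up, and the difference in level remained within zones for some members only. In the pericentral tercile the library labelled CD control exceeded the highest other one by a log2 ratio of 3.33 for Meg3. For Airn the lowest of the 4 ratios between the libraries with and without transgene UMIs was 0.54 there, against 1.48 over all hepatocytes. In the middle tercile the library labelled CD control was the lowest for Airn, at 30.5 CPM, so the pairing did not hold there. Cluster 4, the hepatocyte cluster led by the pericentral genes Slc1a2, Kif26b and Glul, held 13.9%, 7.31%, 7.30% and 9.73% of the hepatocyte nuclei. Within it Meg3 was at 517, 50.5, 33.4 and 14.4 CPM, Rian at 138, 9.61, 11.9 and 1.80, Airn at 2262, 921, 1351 and 2268, and Igf2r at 295, 62.8, 43.8 and 47.4. Inside cluster 4 the order of Meg3 and of Airn between libraries was thus kept in so far as the library labelled CD control was highest for Meg3 and the pair with transgene UMIs for Airn. Cluster 4 alone held 86.7%, 78.5%, 73.7% and 51.1% of the hepatocyte Meg3 UMIs and 73.7%, 58.9%, 57.6% and 49.8% of the Airn UMIs.

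Outside hepatocytes, Meg3 was highest in mesothelial-like nuclei, the lining of the liver surface, marked by Msln, Upk3b and Wt1. There it stood at 747 CPM [620 to 894], 391 [299 to 504], 3418 [2961 to 3926] and 1430 [1260 to 1616] in 89, 92, 42 and 117 nuclei, and was detected in 47.2%, 21.7%, 73.8% and 57.3% of them. The order was not that of hepatocytes, since the libraries labelled LPD control and LPD oncogene were highest here. Rian in these nuclei was at 125, 91.3, 359 and 195 CPM, in the same order as Meg3, and Mirg at 18.7, 0, 120 and 33.4 CPM from at most 7 UMIs. Stellate-like nuclei, the pericytes of the sinusoid, had Meg3 at 79.2, 48.9, 24.6 and 93.5 CPM. Kupffer-like nuclei, liver macrophages taken as a class with little Meg3 of its own, had 16.1, 7.19, 0 and 5.0 CPM and shares of 2.55%, 1.03%, 0% and 0.129%, where 0 allows up to 0.949% of nuclei with a UMI by the same 3 counts, at a median depth of 1315, 1197.5, 828.5 and 938.5 UMIs.

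At 1000 UMIs a nucleus Meg3 was found in 1 of 108, 1 of 197, 0 of 94 and 1 of 335 Kupffer-like nuclei, or 0.926%, 0.508%, 0% and 0.299%. The hepatocyte shares at that depth were 3.70%, 0.478%, 0.219% and 0.320% over all zones. In the pericentral tercile they were 6.52% [5.75 to 7.37], 1.34% [0.867 to 1.97], 0.543% [0.235 to 1.07] and 0.455% [0.208 to 0.862]. The first was above the interval of the Kupffer-like share, 0.0234% to 5.05%, while the Kupffer-like shares of the other libraries rest on at most 1 nucleus each and place no useful bound. In CPM, cluster 4 hepatocytes had a higher level than Kupffer-like nuclei in the library labelled CD oncogene, at 50.5 [44.1 to 57.5] against 7.19 [1.48 to 21]. The same held in that labelled LPD control, at 33.4 [24.1 to 45.2] against 0 [0 to 12.6]. The cluster 4 UMIs came from only 44 of 597 and 10 of 470 nuclei, respectively. Poisson intervals take each UMI as independent, so they are too narrow for UMIs gathered in this way. Whether the levels differ beyond such clumping was not tested. In the library labelled LPD oncogene the intervals overlapped, at 14.4 [9.24 to 21.4] against 5.0 [1.36 to 12.8]. There Meg3 of cluster 4 was not separable from the Kupffer-like level at this depth. Hepatocyte clusters 0, 1 and 2 of that library were lower than its cluster 4, at 1.31 [0.627 to 2.40], 1.25 [0.501 to 2.57] and 1.51 [0.311 to 4.41]. Its cluster 6, at 5.68 [1.17 to 16.6], overlapped cluster 4. The summed mesothelial markers in hepatocytes were at 1.12, 1.74, 0.846 and 1.32 CPM, and did not run with Meg3 over libraries.

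UMIs of Airn were found in every class. No background level was set for Airn, so the lowest of these levels are not read as expression by the class. Stellate-like nuclei had 472, 520, 502 and 492 CPM, nearly the same level in each library, and mesothelial-like nuclei had 698, 300, 684 and 618. Vascular endothelial-like nuclei were at 483, 277, 1031 and 765 CPM, cholangiocyte-like nuclei at 377, 406, 582 and 501, and T or NK-like nuclei at 130, 167, 301 and 459. Kupffer-like nuclei had 96.6, 98.3, 116 and 154 CPM, sinusoidal endothelial-like nuclei 98.0, 102, 40.6 and 61.3, and B-like nuclei 105, 53.0, 38.0 and 60.0. In none of these classes were the libraries labelled CD control and LPD oncogene both at least 2-fold above both others, as they were in hepatocytes. The highest Igf2r level outside hepatocytes in the library labelled CD control was in cholangiocyte-like nuclei, with 107, 56.9, 38.5 and 67.7 CPM, and stellate-like nuclei had 55.8, 41.5, 7.55 and 4.06.

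**Figure D3:**
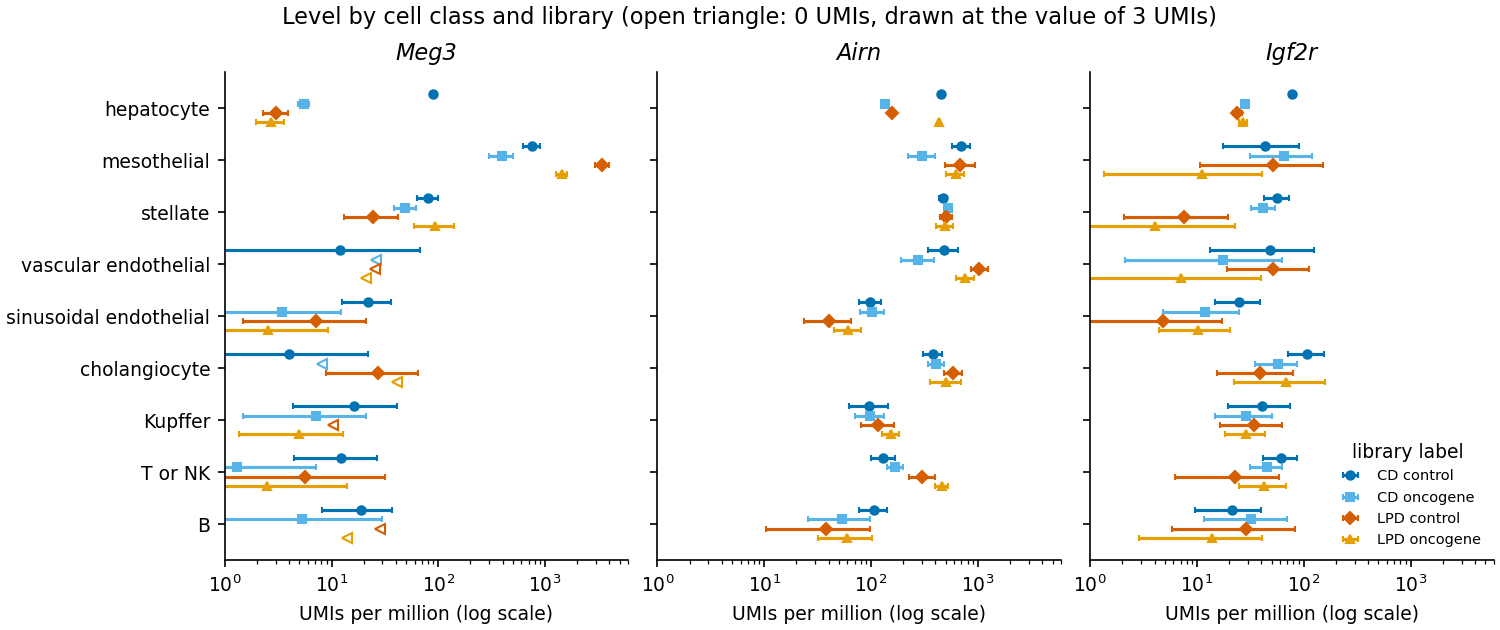
Levels of Meg3, Airn and Igf2r in CPM on a log axis by cell class, one point for each library with its 95% Poisson interval (counting error only) and an open triangle, at the value of 3 UMIs, where none was found. Meg3 is highest in mesothelial-like nuclei (391 to 3418 CPM), and Airn is at 472 to 520 CPM in the stellate-like nuclei of all libraries.

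The UMIs of Meg3 lay in few nuclei. In the library labelled CD control its 4027 hepatocyte UMIs were found in 558 nuclei, where an even spread in proportion to depth would have given 2809, a ratio of 0.199. No gene of the 11641 with at least 100 UMIs there had a lower ratio, the median gene stood at 0.967, and 0.189% were at 0.5 or below. Rian, with 276 nuclei against 949 (0.291), Airn, with 2607 against 5990 (0.435), and Mirg, with 133 against 280 (0.476), ranked 3, 14 and 16. Igf2r was more even, at 0.717. The top 70 nuclei, 1% of the hepatocytes, held 53.6% of the Meg3 UMIs, and 1 nucleus held 98.

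In the library labelled CD oncogene Meg3 was found in 96 nuclei against 280 (0.343), with 46.9% of its UMIs in 10 nuclei, and Airn stood at 0.445, where 0.146% of genes were at 0.5 or below. In the libraries labelled LPD control and LPD oncogene Airn stood at 0.396 and 0.446, against 0.0609% and 0.0924% of genes, and Meg3 was below the floor of 100 UMIs. Part of this runs with zone and depth. Within the pericentral tercile of the library labelled CD control the ratio was 0.219 for Meg3 and 0.628 for Airn, and within cluster 4 it was 0.408 for Meg3. For Airn the measure has no room there, since 98.8% of these nuclei held a UMI of it.

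**Figure D4:**
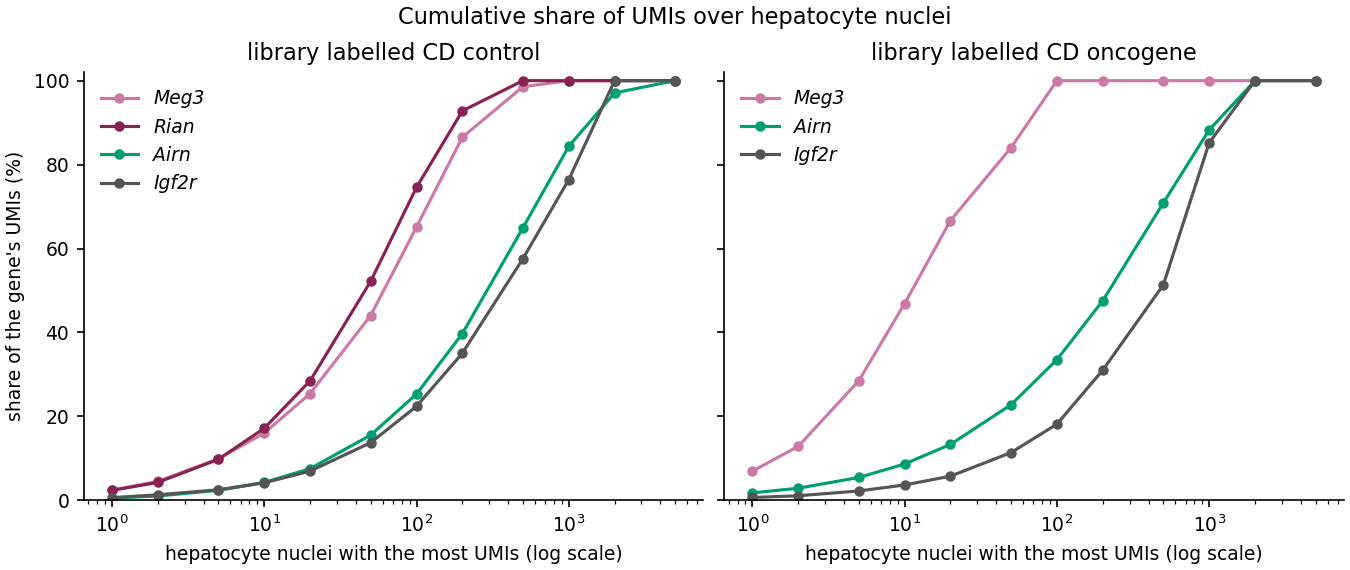
Cumulative share of the hepatocyte UMIs (%) of Meg3, Rian, Airn and Igf2r against the number of hepatocyte nuclei on a log axis, counted from the nucleus with most UMIs of that gene, in the CD libraries labelled control and oncogene (without Rian in the latter). The Meg3 curve reaches 16.0% at 10 nuclei in the library labelled CD control and 46.9% in that labelled CD oncogene, and Igf2r rises most slowly.

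The 135 hepatocyte nuclei with at least 10 Meg3 UMIs in the library labelled CD control, 1.96% of its hepatocytes, held 75.4% of its hepatocyte Meg3 UMIs. All of them were in the pericentral tercile, 88.9% were in cluster 4, and their median depth was 9728 UMIs against 5440 for nuclei without Meg3. In them Rian stood at 569 CPM against 1.29 in nuclei without Meg3, Mirg at 169 against 0.244, Airn at 2304 against 318 and Igf2r at 329 against 59.7. Glul, the glutamine synthetase of pericentral hepatocytes, stood at 2356 against 226, and the periportal Cyp2f2 at 66.7 against 299. Mesothelial markers summed to 1.39 CPM against 1.07 and so were near 0 in both. The library labelled CD oncogene had 10 such nuclei, that labelled LPD control 1 and that labelled LPD oncogene 0.

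The RNAs of chromosome 12 were found in the same nuclei. In the library labelled CD control 228 hepatocyte nuclei held both Meg3 and Rian, where their shares within bins of depth would give 26.0, and these were 82.6% of the Rian-positive and 40.9% of the Meg3-positive nuclei. For Meg3 with Mirg it was 123 against 13.3, and for Rian with Mirg 113 against 7.35. Meg3 with Rian was found in 20 nuclei against 0.429 in the library labelled CD oncogene, in 6 against 0.0606 in that labelled LPD control and in 3 against 0.0512 in that labelled LPD oncogene. Rian and Meg3 were thus found together more often than these shares give in every library. In the libraries labelled CD oncogene, LPD control and LPD oncogene, however, only 20.8%, 24.0% and 8.82% of the Meg3-positive nuclei held Rian. The numbers from shares are matched for depth and not for zone, and both genes were mainly pericentral. Across the clusters, Meg3 with Airn was found in 438 nuclei against 222, Airn with Igf2r in 1207 against 732, and Meg3 with Cyp2f2 in 201 against 321 in the library labelled CD control.

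Of 7203 genes, those among the highest in Meg3-positive over Meg3-negative hepatocyte nuclei, by the mean log2 ratio of CPM + 5 over the 4 libraries, included Rian (4.16), Glul (2.68), Slc1a2 (2.53), a glutamate transporter, and Kif26b (2.52). Airn was at rank 7 (2.00), Lgr5, an R-spondin receptor of pericentral cells, at rank 8 (1.91), and Igf2r at rank 74 (0.75). Over 38 sets of 1 class in 1 library, the genes whose log2 level ran most like that of Meg3 were Rian (Pearson r = 0.92), Ogn (0.90), Rbfox1 (0.89), Vgll3 (0.88) and Prdm6 (0.87), where sets of a library share its depth. Mirg followed at rank 66 (0.78), and Airn (0.38) and Igf2r (0.08) ran little like it.

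The nuclei in which a transgene UMI was found can be set against the rest within a library. In the library labelled CD control 83 hepatocyte nuclei held one, 81 of them in the pericentral tercile, at a median depth of 7387 against 5489 UMIs. They had Airn at 1979 CPM [1883 to 2079] against 428, Igf2r at 233 [201 to 269] against 74.2, Meg3 at 251 [218 to 289] against 85.6 and Rian at 68.1 [51.3 to 88.7] against 22.4. Airn was detected in 78 of the 83 (94.0%), and Meg3 in 21 (25.3%). Within the pericentral tercile the log2 ratios were 1.38 for Airn, 1.04 for Igf2r, 0.72 for Meg3 and 0.76 for Rian. Over all hepatocytes they were 2.21, 1.65, 1.55 and 1.61. The zone score includes genes such as Glul and Lgr5, which the paper reports as high in oncogene-expressing hepatocytes. Zone and transgene can therefore not be told apart here. In the library labelled LPD oncogene 5 hepatocyte nuclei held a transgene UMI, each with Airn, at 2686 against 431 CPM, and none with Meg3. Transgene UMIs were too few for their absence to mark a nucleus as free of the transgene.

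Airn and Igf2r rose together from nucleus to nucleus in the pericentral tercile. With 0, 1 to 4, 5 to 9 and 10 or more Airn UMIs in a nucleus, Igf2r stood at 28.1, 67.6, 139 and 294 CPM in the library labelled CD control, a 10.5-fold rise with a log2 ratio of 3.39 [3.20 to 3.58]. It stood at 22.6, 34.9, 44.4 and 82.7 CPM in that labelled CD oncogene (3.66-fold), at 24.5, 35.5, 61.7 and 54.0 in that labelled LPD control (2.20-fold) and at 22.0, 29.3, 32.6 and 59.0 in that labelled LPD oncogene (2.69-fold). In nuclei without Airn the Igf2r level was thus alike in all libraries, at 22.0 to 28.1 CPM. The bins differed in other ways too, since in the library labelled CD control the median depth rose from 5012 to 8236 UMIs and Glul from 38.5 to 1868 CPM.

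**Figure D5:**
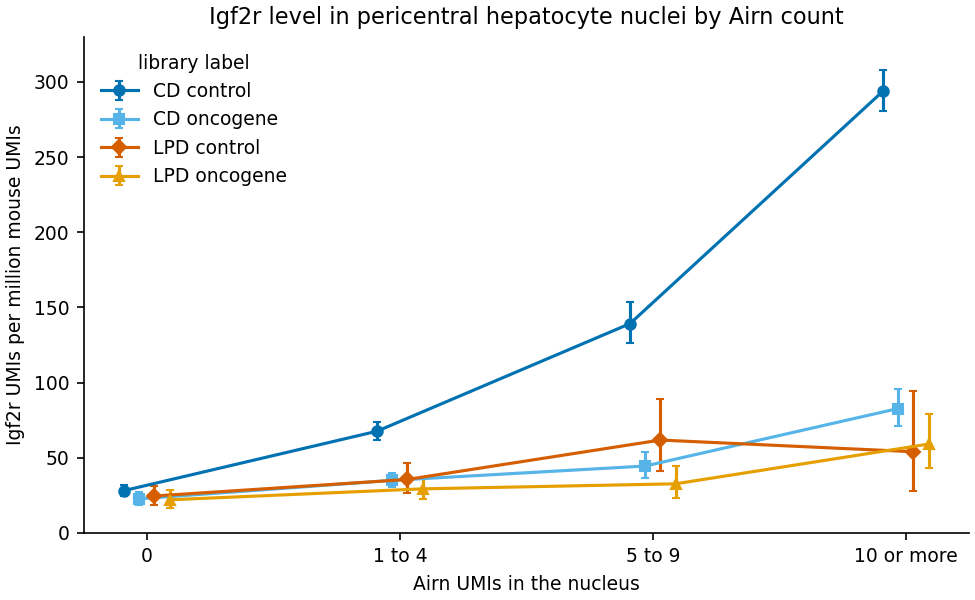
Igf2r level in CPM against the number of Airn UMIs in the nucleus (0, 1 to 4, 5 to 9, 10 or more) in pericentral hepatocyte nuclei, one line for each library with 95% Poisson intervals (counting error only). The libraries start at 22.0 to 28.1 CPM and reach 294 in the library labelled CD control and 54.0 to 82.7 in the others.

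Within cluster 4 the same bins gave Igf2r at 113, 193, 223 and 325 CPM in the library labelled CD control, 19.1, 48.0, 46.0 and 94.3 in that labelled CD oncogene, 50.6, 36.8, 48.7 and 51.5 in that labelled LPD control, and 32.9, 34.7, 48.0 and 62.7 in that labelled LPD oncogene. In log2 the highest bin over the lowest was 1.53 [-0.02 to 3.81], 2.30 [1.05 to 3.94], 0.03 [-1.40 to 1.40] and 0.93 [-0.74 to 3.28], so that only the interval of the library labelled CD oncogene lay above 0. The lowest bin of the library labelled CD control held 12 nuclei, and the median depth rose over the bins here too, from 1770.5 to 8082 UMIs in that library. Leaving out nuclei with a transgene UMI gave a 10.6-fold rise over the pericentral tercile of the library labelled CD control. Nuclei whose transgene went undetected remain in that value. How UMIs of the stretch shared by both genes were assigned, and its part in this, was not tested.

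The other genes linked to these pathways were read against the same rules. Of 84 other imprinted genes, 82 were in the files and 25 passed the floor, none with the pattern of Meg3 or Airn and none at least 2-fold pericentral in all libraries, where the shares of all genes were 1.12%, 0.222% and 1.49%. A count of 0 in 25 is near this background. Their median log2 ratio of the library labelled CD control to the mean of the others was 0.08, against -0.06 for all genes. It was 3.10 for the 4 members, which were chosen on these same levels. Of these, Meg3 and Rian passed the floor only through that library, so the 3.10 is no sign that members differ from other imprinted genes. By diet H13, a signal peptide peptidase (59.3, 65.2, 131 and 133 CPM), and Ago2, an effector of microRNAs (27.8, 32.4, 75.3 and 76.2), were higher in both LPD libraries, and Ddc, a decarboxylase of aromatic amino acids (493, 573, 185 and 210), was lower. The highest by UMIs summed over the hepatocytes of all libraries were Plg, plasminogen, at 762 to 1066 CPM, Slc38a4, an amino acid transporter, at 459 to 1153, and Ddc. Plg lies in the Igf2r cluster, but Airn's pattern was not seen in it.

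In the insulin-like growth factor pathway 9 of 13 genes passed the floor and none met the diet rule, which 3.40% of all genes met upward and 2.00% downward, so 0 of 9 is near the background. Igf1, the hepatic growth hormone target, stood at 1715, 875, 797 and 2297 CPM, high in the same libraries as Airn, with the lowest of the 4 log2 ratios at 0.97. In the Notch pathway, whose receptors Dlk1 binds, 3 of 11 genes passed and none met the rule, which is too few to read. Of 8 genes of fetal liver and imprint control only Igf2bp2, an RNA-binding protein of Igf2 mRNA, passed the floor, at 6.80, 2.12, 24.4 and 15.9 CPM. It met the diet rule upward, as did 3.40% of all genes. It passed the floor only through the library labelled LPD control, so meeting that rule follows in part from the floor.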

How the data were processed

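Single-nucleus libraries (10x 3' v3.1) were deposited by the authors as raw UMI counts per gene and barcode, made with Cell Ranger on mm10 plus human c-MET and CTNNB1; the labels also name Seurat 5, and strand and intron settings are not given in the sources used here. Barcodes with 200 to 7000 genes and at most 21% mitochondrial UMIs were kept, as in the study. Nuclei were clustered with Harmony integration and Louvain (numpy 2.4.6, scikit-learn 1.9.0, python-igraph 0.11.9), leaving out the imprinted genes, and classes were named from fixed marker lists by rules set after the counts were seen (at least 3 markers raised 3-fold, and hepatocyte for clusters in which no other class was raised). Clusters of mixed markers (doublets, 1181 nuclei) and of low depth (5025 nuclei) stayed out. Scrublet called 0 to 1 doublets a library and so did not work. A nucleus was placed in a tercile by its zone score, and 3098 and 1813 nuclei lay within 0.1 SD of the cuts. CPM used summed counts. No column of the files was left out. Members, gene lists and alternatives were chosen with earlier results of these data known. Beyond the members, genes were named by passing the diet rule, by being the 3 highest other imprinted genes, or as the 5 nearest to Meg3 by each measure, of which 1 is not reported here; Airn and Igf2r partners, Rtl1, Igf1, Cyp2f2 and Lgr5 were added after their values were seen. The contrasts across genes and the concentration measure were tested on simulated data. Alternatives covered filters, doublets, scaling (edgeR 4.0.16 TMM), pseudocount, zones and depth. One library a group means that the spread between mice is unknown.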

Additional observations from a re-analysis of the deposited data

Results flagged for a closer look

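The library labelled CD control held 100 UMIs of the human transgenes in 90 nuclei, outside the genes reported on and above the 0 UMIs of the library labelled LPD control. It is the library with the highest Meg3, Rian, Mirg and Igf2r, and of its 83 hepatocyte nuclei with a transgene UMI, 78 held Airn and 21 held Meg3. Without the transgene-positive nuclei Meg3 was at 85.6 CPM and Airn at 428 CPM in the hepatocytes of this library. These were 83 of 6905 hepatocyte nuclei, too few to move the summed level much. Absence of a transgene UMI does not mark a nucleus as free of the transgene. The values therefore do not show which nuclei the high levels came from. Whether the labels of the CD libraries were exchanged was not tested beyond these UMIs and the numbers of nuclei.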

How the results depend on the processing

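No called value changed sign, and no paired analysis was possible because each group holds 1 library, all with replicate number 1. Alternatives were stricter filters of nuclei, hepatocytes taken by a marker gate, leaving out nuclei with a marker of another class, adding the low-depth clusters, the mean of each nucleus' own CPM, leaving out the 10 nuclei with most UMIs, a pseudocount of 5 CPM and TMM scaling. The mean LPD over CD log2 ratio of Meg3, -2.96, was -3.31 with stricter filters, -2.28 without nuclei holding another class's marker, -2.52 with own CPM, -3.82 without 10 nuclei and -2.0 with the pseudocount, and ranged from -4.96 to -0.95 when each library was left out. That of Airn, 0.07, was -0.29 with stricter filters, 0.30 with the gate, 0.39 without other markers, 0.032 with low-depth clusters, 0.18 with own CPM and -0.10 with TMM, and ranged from -0.81 to 0.96 when each library was left out, so its sign is not set. Meg3 in the library labelled CD control over the highest other, 4.01, was 4.41 with stricter filters, 3.01 with the gate, 2.28 without other markers, 3.47 with own CPM, 4.67 without 10 nuclei, 3.15 with the pseudocount and 3.33 in pericentral nuclei. The Airn pattern, 1.48, was 1.34 without other markers, 1.38 with own CPM and 0.54 in pericentral nuclei. The lowest zone log2 ratio of Airn, 4.28, was 4.0 with terciles set within a library. The Meg3 concentration ratio of 0.199 was 0.219 in pericentral nuclei, 0.408 in cluster 4, 0.489 at 1000 UMIs and 0.221 without 10 nuclei, and that of Airn, 0.435, was 0.628, 0.991 and 0.548 under the first 3 of these, where the cluster 4 value is bound to be near 1 because 98.8% of its nuclei hold Airn. The causes were not tested. Leaving out 10 nuclei gave no value for Rian and Mirg, which had 0 UMIs left in LPD libraries. Depth limits the LPD values of Meg3, Rian and Mirg, at most 57 UMIs each.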

Other observations

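Kcnq1ot1, a paternally expressed antisense RNA of the chromosome 7 imprinted cluster, stood at 293, 310, 417 and 419 CPM in hepatocytes of the 4 libraries, in the order of the report, and met neither the diet rule nor the Meg3 or Airn pattern. Nnat, an imprinted gene of chromosome 2, was below the floor, with 363, 210, 18 and 14 UMIs, or 7.98, 4.02, 0.952 and 0.802 CPM. Dio3os, at the far end of the Meg3 cluster and below the floor, had 58, 18, 93 and 48 UMIs, or 1.28, 0.345, 4.92 and 2.75 CPM. By CPM it was higher in both LPD libraries than in both CD libraries. Mas1, beside Igf2r, had 14, 2, 1 and 0 UMIs. Dio3os and Mas1 were both chosen after their values were seen.

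Airn in proliferating nuclei, which express Mki67 and Top2a and were not split by cell type, stood at 243, 59.9, 258 and 497 CPM. The genes whose level over the 38 sets ran most like that of Airn were Ahdc1 (Pearson r = 0.79), Plekha7 (0.78), Jph1 (0.76), Nfia (0.75) and Reck (0.75), a description in which sets of one library share its depth.

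Meg3 in hepatocytes of the library labelled CD control was at 73.5, 91.9, 63.6 and 104 CPM in nuclei of under 2000, 2000 to under 4000, 4000 to under 8000 and at least 8000 UMIs, and Airn at 592, 476, 411 and 476. In this library neither level ran with depth in one direction. In the same depth ranges Meg3 fell in the library labelled CD oncogene, at 11.5, 9.11, 7.90 and 2.85 CPM. In that labelled LPD control 42 of its 57 hepatocyte UMIs lay in nuclei of under 2000 UMIs.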
